A study of Homo sapiens with 15 samples.

Results

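Airway mucins are the heavily O-glycosylated proteins that build the mucus gel and the brush of glycoproteins on the epithelial surface. The genes described here were MUC1, MUC3A, MUC4, MUC5AC, MUC5B, MUC13, MUC16 and MUC20, taken by symbol from the deposited count tables. All 8 were found among the 43388 gene rows of each table. They were measured by RNA sequencing in A549 cells, a human lung adenocarcinoma line with features of alveolar epithelium, after 72 h in hyperoxia (95% O2) or normoxia (21% O2). The comparisons ask how high oxygen, all-trans retinoic acid (ATRA, a signalling form of vitamin A that acts through nuclear receptors) and their combination moved each mucin. Cells labelled ATRA had received it at 1e-05 mM, as the labels write the dose, and cells labelled vehicle had received ethanol, in both cases from 24 h before the oxygen exposure. Other libraries carry only the oxygen condition in their labels and are called untreated here, although the study's methods describe ethanol for control cells, so that they may have received it too. There were 2 normoxia untreated, 2 normoxia vehicle, 3 normoxia ATRA, 2 hyperoxia untreated, 2 hyperoxia vehicle and 3 hyperoxia ATRA libraries, all from the same wild-type line. Another library has labels that contradict each other (hyperoxia in the title, adipogenic differentiation as treatment) and entered no comparison. Replicate numbers are names only, and the labels do not say whether libraries came from separate cultures, so the p-values measure the spread between these libraries.

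Secreted mucins such as MUC5AC and MUC5B polymerise through cysteine-rich ends into the mucus gel that cilia clear from the airways. Membrane mucins such as MUC1, MUC3A, MUC4, MUC13 and MUC16 are anchored by a transmembrane segment, and several carry a cytoplasmic tail that takes part in signalling. Retinoic acid is long known as a factor that keeps airway epithelium mucosecretory in place of squamous.

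Reads assigned to genes numbered 2642377 to 5605072 per labelled library, and 3 counts, used here as the detection floor, corresponded to 0.535 to 1.14 CPM, that is, counts relative to a fixed total per library. Hyperoxia untreated replicate 1 stood apart: 12657 genes had a count in it, against 16465 to 20108 in the other labelled libraries. The oxygen comparisons of untreated cells are given with and without it. The epithelial markers EPCAM, KRT8, KRT18, KRT19 and CDH1 were all detected, and their summed level was 5743 to 9562 CPM in normoxia and 1685 to 4203 CPM in hyperoxia. The club and goblet cell markers SCGB1A1, SCGB3A1 and SCGB3A2 were at 0 in all 14 labelled libraries, and the alveolar type II markers SFTPA1 and SFTPA2 were also at 0 throughout. The summed level of all 7 airway secretory markers was 6.24 to 37.9 CPM in normoxia and 0 to 7.65 CPM in hyperoxia, and most of it was SPDEF. The summed alveolar type II markers were 50.1 to 93.9 CPM in normoxia and 108 to 157 CPM in hyperoxia and were nearly all ABCA3, with group means of 63.1 to 137 CPM. The summed leukocyte markers, nearly all CD68, were 17.4 to 32.8 and 60.4 to 103 CPM. In bulk RNA, fewer cells of a type and less RNA per cell cannot be told apart. The part of these marker shifts in the mucin results was not tested.

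The 8 genes lie on 5 chromosomes of GRCh38.p14. MUC5AC (chr11:1157953-1201138) and MUC5B (chr11:1223066-1262172) are neighbours on the forward strand of chromosome 11, with 49 exons each. MUC4 (chr3:195746771-195811929), MUC20 (chr3:195720978-195733551) and MUC13 (chr3:124905442-124934751) are on chromosome 3. MUC1 is at chr1:155185824-155192915, MUC3A at chr7:100949534-100968347 and MUC16 at chr19:8848844-9065751. Mucins carry tandem repeats, and a read that fits several places inside one gene is not a unique alignment. Of all 50-base stretches of the reference transcript, 29.2% recur within MUC5B, 28.9% within MUC4, 22.5% within MUC20 and 21.5% within MUC5AC, whereas none recur within MUC1 or MUC13.

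Levels differed widely between members. Compared per kilobase of transcript on the trimmed-mean (TMM) normalized scale, and averaged over the 14 labelled libraries, MUC5AC stood at 14.8 CPM per kb, MUC5B at 12.8 and MUC13 at 6.68. MUC1 followed at 1.39 and MUC3A at 0.747 CPM per kb. MUC20 (0.120), MUC16 (0.0390) and MUC4 (0.0360 CPM per kb) were near the limit of detection. The order within each group is given next, since the oxygen conditions differed in it.

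In normoxia vehicle cells the order was MUC5AC (18.6 ± 1.65 CPM per kb, SD, n = 2), MUC5B (11.6 ± 3.90) and MUC13 (5.70 ± 0.478), each separated from the next by more than their SDs. In hyperoxia vehicle cells MUC13 (5.63 ± 1.06), MUC5B (5.44 ± 1.92) and MUC5AC (5.14 ± 0.666 CPM per kb, SD, n = 2) lay within their spread of each other. In hyperoxia ATRA cells MUC5B led (12.2 ± 4.58), with MUC5AC (8.73 ± 0.891 CPM per kb, SD, n = 3) within its spread. In normoxia ATRA cells the same held for MUC5AC (22.7 ± 6.61) and MUC5B (19.4 ± 10.1 CPM per kb, SD, n = 3). In hyperoxia untreated cells MUC13 (8.57 ± 2.20) and MUC5B (7.10 ± 0.403) were within spread and both above MUC5AC (3.90 ± 1.88 CPM per kb, SD, n = 2). In hyperoxia untreated replicate 2 alone the levels were 7.38 for MUC5B, 7.02 for MUC13 and 5.23 CPM per kb for MUC5AC. In normoxia untreated cells MUC5AC (28.8 ± 0.00223) was above MUC5B (18.2 ± 8.13 CPM per kb, SD, n = 2).

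**Figure D1:**
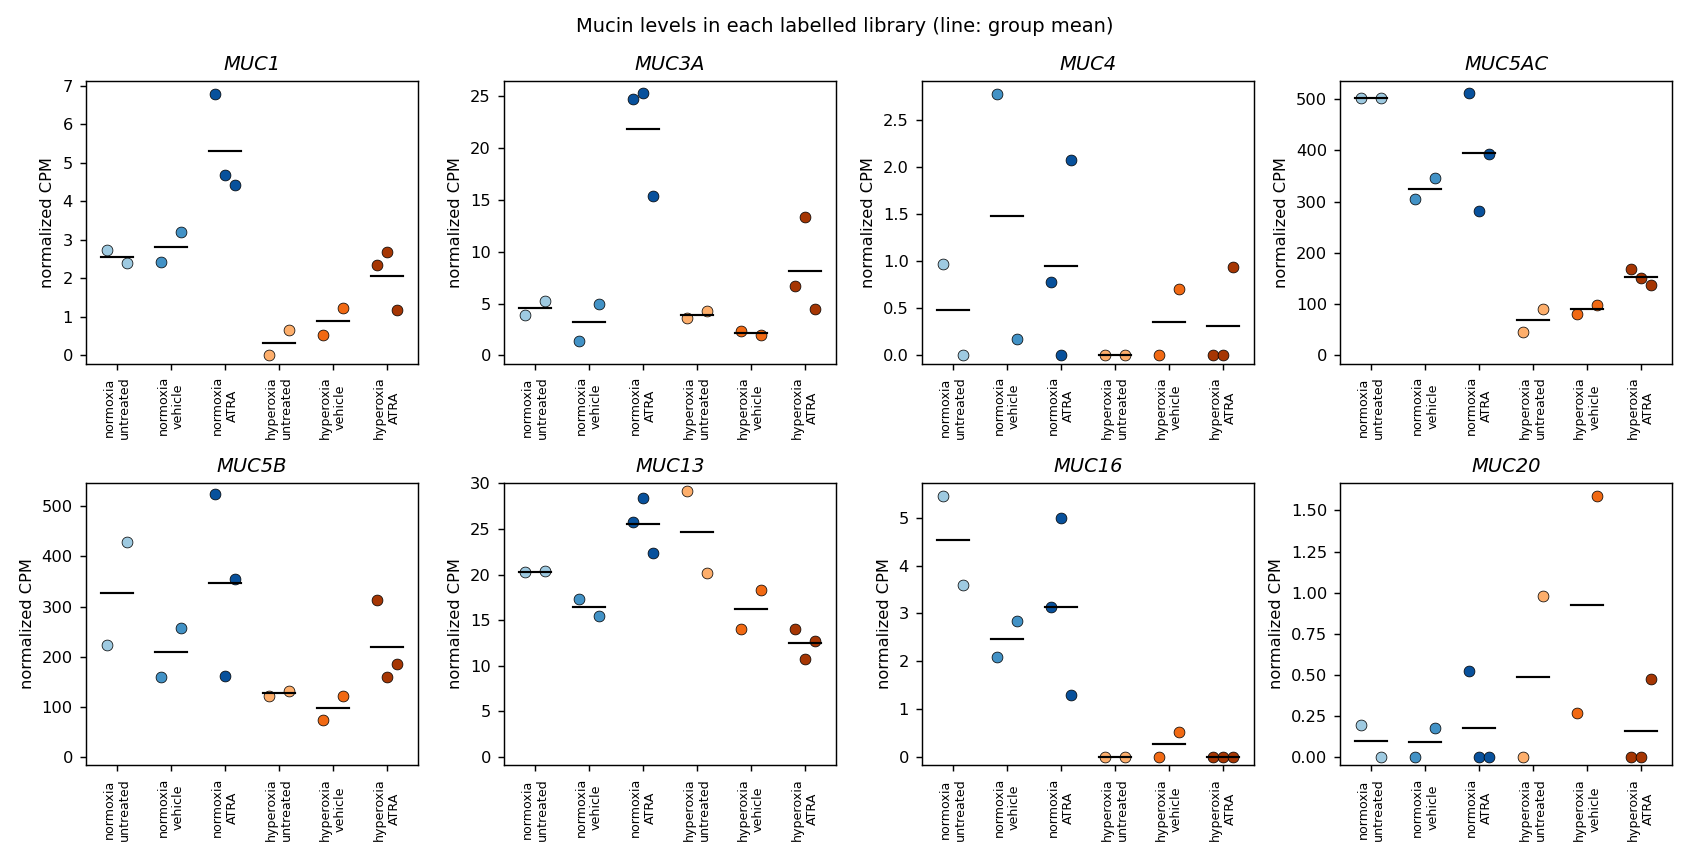
Normalized CPM (y axis, linear, own scale per gene) of the 8 mucin genes in each of the 14 labelled libraries, by group (x axis); points are libraries and lines are group means. MUC5AC lies between 281.5 and 512 CPM in normoxia and between 44.9 and 168.9 CPM in hyperoxia, and MUC16 is at 0 in 6 of 7 hyperoxia libraries.

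MUC5AC, the inducible gel-forming mucin of surface goblet cells, was lower in hyperoxia in every treatment. The 2 normoxia untreated libraries held 502.7 and 502.8 CPM, and the 2 hyperoxia untreated libraries 44.9 and 91.2 CPM. The normoxia vehicle libraries held 304.8 and 345.5 CPM, and the hyperoxia vehicle libraries 81.4 and 97.8 CPM. The normoxia ATRA libraries held 512, 281.5 and 393.2 CPM, and the hyperoxia ATRA libraries 168.9, 150 and 138.1 CPM. All 7 hyperoxia libraries lay below all 7 normoxia libraries. This was also true of 7.31% of the 15339 genes tested, and the division was looked at after the values were seen.

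A gene was called when its p-value, adjusted over all genes tested, was under 0.05, and errors of log2 fold changes are standard errors (SE). Hyperoxia changed MUC5AC by −1.86 ± 0.20 (SE) on the log2 scale in vehicle cells, 3.62-fold lower (edgeR quasi-likelihood test, Benjamini-Hochberg adjusted p = 8.43e-07, 2 against 2 libraries). In ATRA cells the log2 fold change was −1.38 ± 0.16, 2.60-fold lower (edgeR, adjusted p = 1.94e-06, 3 against 3). In untreated cells it was −2.91 ± 0.29, 7.50-fold lower (edgeR, adjusted p = 7.44e-06, 2 against 2), and −2.47 without hyperoxia untreated replicate 1 (edgeR, adjusted p = 6.84e-07). When only the 4 untreated libraries were fitted, the value was −2.90 with an adjusted p of 0.0560 in edgeR.

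ATRA raised MUC5AC in hyperoxia, from 89.6 ± 11.6 CPM (SD, n = 2) with vehicle to 152.3 ± 15.5 CPM (SD, n = 3) with ATRA, which is 1.70-fold or 0.76 ± 0.19 on the log2 scale (edgeR, adjusted p = 0.0305). The 3 ATRA libraries were all above the 2 vehicle libraries, a separation whose share over all genes was not counted. This call was lost when any 1 of hyperoxia ATRA replicate 1 or 2 or hyperoxia vehicle replicate 1 or 2 was left out (log2 fold change 0.63 to 0.90, edgeR adjusted p = 0.0721 to 0.484) and in the fit of all 14 libraries (0.76, adjusted p = 0.307). In normoxia the ATRA and vehicle libraries overlapped, with 395.6 ± 115.3 CPM (SD, n = 3) and 325.2 ± 28.8 CPM (SD, n = 2), and the log2 fold change was 0.28 ± 0.17 (edgeR, adjusted p = 0.745). The difference between the ATRA effects in hyperoxia and normoxia was 0.48 on the log2 scale, with a 95% interval of −0.04 to 1.01 (edgeR, adjusted p = 0.744). With ATRA, MUC5AC in hyperoxia was still below every normoxia library.

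MUC5B, the gel-forming mucin of submucosal glands and distal airways, was less uniform. The normoxia untreated libraries held 223.7 and 429.6 CPM and the hyperoxia untreated libraries 122.0 and 132.3 CPM. The vehicle libraries held 159.2 and 257.9 CPM in normoxia and 73.2 and 121.8 CPM in hyperoxia. The ATRA libraries held 524.3, 162.3 and 354.7 CPM in normoxia and 312.8, 159.6 and 185.6 CPM in hyperoxia. Normoxia and hyperoxia did not overlap in untreated or vehicle cells, but they did in ATRA cells, where normoxia ATRA replicate 2 was low and hyperoxia ATRA replicate 1 was high. The share of all genes without overlap in such groups was not counted.

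Hyperoxia lowered MUC5B in vehicle cells by 1.10 ± 0.37 on the log2 scale, 2.14-fold (edgeR, adjusted p = 0.0437). The call was lost without hyperoxia vehicle replicate 1 (−0.81, edgeR adjusted p = 0.315), without normoxia vehicle replicate 2 (−0.72, adjusted p = 0.369), with DESeq2 (−1.11, adjusted p = 0.212) and in the fit of all 14 libraries (−1.10, adjusted p = 0.165). In untreated cells the log2 fold change was −1.36 ± 0.45 (edgeR, adjusted p = 0.0525), and −1.31 without hyperoxia untreated replicate 1 (adjusted p = 0.0908). It passed in 4 of 9 alternatives: without hyperoxia untreated replicate 2 (−1.47, edgeR adjusted p = 0.0156), without normoxia untreated replicate 1 (−1.80, adjusted p = 0.0406), with a block for library sets (−1.39, adjusted p = 0.0128) and with no filter on low counts (−1.39, adjusted p = 1.23e-13). In ATRA cells it was −0.65 ± 0.29 (edgeR, adjusted p = 0.117), which passed in 4 of 12 alternatives: without hyperoxia ATRA replicate 1 (−1.01, adjusted p = 0.0149), without normoxia ATRA replicate 2 (−0.99, adjusted p = 0.00848), with the block (−0.59, adjusted p = 0.00255) and with no filter (−0.67, adjusted p = 1.55e-06). ATRA against vehicle gave log2 fold changes of 1.17 ± 0.34 in hyperoxia (edgeR, adjusted p = 0.0897) and 0.73 ± 0.33 in normoxia (adjusted p = 0.527). The hyperoxia value passed in 3 of 11 alternatives, with the block (0.82, edgeR adjusted p = 0.00718), with only the groups compared (1.17, adjusted p = 0.0312) and with no filter (1.15, adjusted p = 1.49e-12), and the normoxia value in 1 of 11, with no filter (0.72, adjusted p = 6.57e-05). With no filter the MUC5B fold changes stayed near the main fit while the adjusted p fell by orders of magnitude. The cause was not tested, and these passes are not read as support.

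The ratio of MUC5AC to MUC5B counts within a library does not depend on library size. It was computed after the levels were seen and is given as a description. It ranged from 0.977 to 2.25 (median 1.34) in the 7 normoxia libraries and from 0.368 to 1.11 (median 0.744) in the 7 hyperoxia libraries, so that the ranges overlapped. Normoxia ATRA replicate 1 (0.977) was the only normoxia library with more MUC5B than MUC5AC counts, and hyperoxia vehicle replicate 1 (1.11) the only hyperoxia library with more MUC5AC. The lowest ratio, 0.368, came from hyperoxia untreated replicate 1, and the lowest of the other hyperoxia libraries was 0.540.

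**Figure D2:**
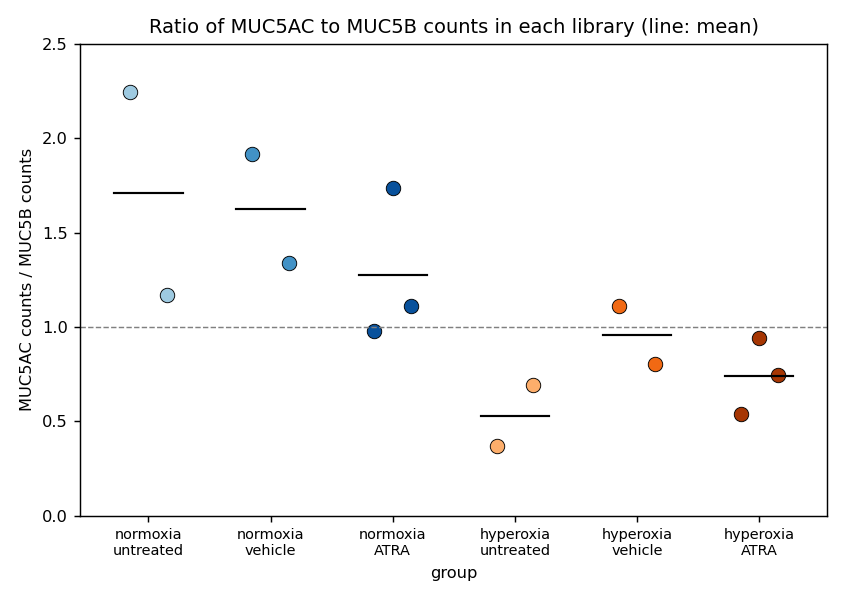
Ratio of MUC5AC to MUC5B counts (y axis, no unit, linear from 0) in each of the 14 labelled libraries by group (x axis), with the group mean as a line and equal counts as a dashed line. Normoxia libraries span 0.977 to 2.25 and hyperoxia libraries 0.368 to 1.11.

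MUC5B shares its locus with MUC5B-AS1, an antisense long non-coding RNA. Whether counting used strand is not given in the sources used here, so their counts are uncertain where the genes overlap. MUC5B-AS1 held 9.67% as many counts as MUC5B over the 14 libraries, with a range of 0 to 14.3%, the 0 in hyperoxia untreated replicate 1. Its log2 fold changes in hyperoxia were −1.07 ± 0.57 with vehicle (edgeR, adjusted p = 0.230), −0.81 ± 0.44 with ATRA (adjusted p = 0.200) and −1.94 ± 1.03 untreated (adjusted p = 0.224), or −0.85 ± 0.66 without hyperoxia untreated replicate 1 (adjusted p = 0.493).

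Of the genes from 150 kb before MUC6 to 150 kb after MUC5B, 9 were tested, including the pair of members. MUC6, the gastric gel-forming mucin, had log2 fold changes in hyperoxia of −1.37 ± 1.06 with vehicle (edgeR, adjusted p = 0.441), −2.15 ± 0.96 with ATRA (adjusted p = 0.117) and 1.44 ± 1.31 untreated (adjusted p = 0.483), a sign that turned without hyperoxia untreated replicate 1 (−3.04 ± 1.57, adjusted p = 0.263). On the other side of MUC5B, TOLLIP, an adaptor that restrains Toll-like receptor signalling, rose in hyperoxia with ATRA (0.92 ± 0.20, edgeR adjusted p = 0.00152) and stood at 0.49 ± 0.24 with vehicle (adjusted p = 0.178). In untreated cells it passed with hyperoxia untreated replicate 1 (1.40 ± 0.36, adjusted p = 0.0148) and not without it (0.62 ± 0.31, adjusted p = 0.245). TSPAN4, a tetraspanin, rose with ATRA (0.77 ± 0.22, edgeR adjusted p = 0.0128) and stood at 1.24 ± 0.34 untreated (adjusted p = 0.0236, and 0.0507 without that library). AP2A2, an adaptor subunit of endocytosis, fell with vehicle by 0.57 ± 0.18 (edgeR, adjusted p = 0.0287).

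**Figure D3:**
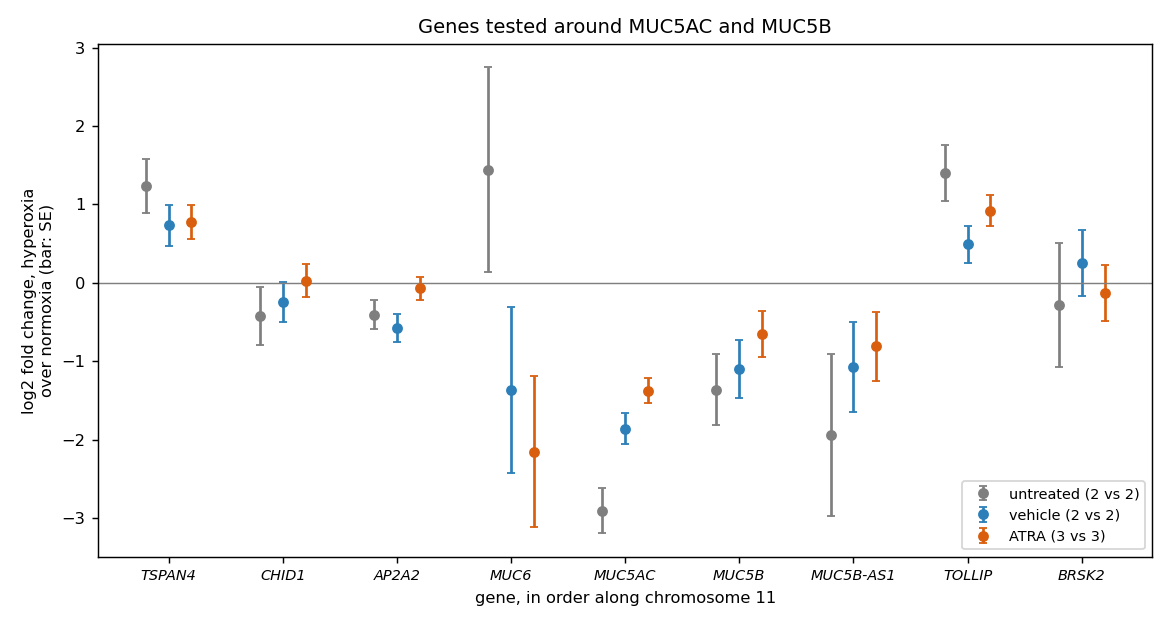
Log2 fold change, hyperoxia over normoxia (y axis, bars are SE), of the 9 genes tested around MUC5AC and MUC5B in their order along chromosome 11 (x axis, not to distance), in untreated, vehicle and ATRA cells. MUC5AC is below 0 in all 3 comparisons (−2.91, −1.86 and −1.38), while TOLLIP is above 0 in all 3 (1.40, 0.49 and 0.92), its untreated call resting on hyperoxia untreated replicate 1.

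Among the membrane mucins, MUC3A, an epidermal growth factor-domain mucin best known from intestine, had the largest fold change with ATRA of the tested members other than MUC16. The vehicle libraries held 1.39 and 4.97 CPM in normoxia and 2.39 and 1.94 CPM in hyperoxia. The ATRA libraries held 24.8, 25.3 and 15.4 CPM in normoxia and 6.67, 13.4 and 4.49 CPM in hyperoxia. The untreated libraries held 3.90 and 5.28 CPM in normoxia and 3.60 and 4.24 CPM in hyperoxia. At both oxygen levels every ATRA library was above every vehicle library, and the 3 normoxia ATRA libraries were the highest of the 14. How many of all genes separate in this way was not counted.

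ATRA raised MUC3A in normoxia by a log2 fold change of 2.65 ± 0.54, 6.28-fold (edgeR, adjusted p = 0.0116). In the fit of vehicle and ATRA libraries MUC3A passed the filter only with its ATRA libraries, so the filter favoured a call in this direction. The call was lost without normoxia ATRA replicate 1 (2.57, edgeR adjusted p = 0.0713), without normoxia vehicle replicate 1 (2.12, adjusted p = 0.262) and in the fit of all 14 libraries (2.70, adjusted p = 0.117). In hyperoxia the log2 fold change was 1.87 ± 0.58 (edgeR, adjusted p = 0.108), and it passed with DESeq2 (1.90, adjusted p = 0.0444), with no filter (1.85, edgeR adjusted p = 0.0306) and without hyperoxia ATRA replicate 3 (2.17, edgeR adjusted p = 0.0478). The 2 ATRA effects differed by −0.78 on the log2 scale (95% interval −2.42 to 0.86, edgeR adjusted p = 0.899). Hyperoxia lowered MUC3A in ATRA cells by 1.46 ± 0.44 on the log2 scale (edgeR, adjusted p = 0.0186), a call lost without normoxia ATRA replicate 1 or 2 or hyperoxia ATRA replicate 3 (−1.34, −1.33 and −1.17, adjusted p = 0.0882, 0.0742 and 0.0795) and in the fit of all 14 libraries (−1.43, adjusted p = 0.0982). In vehicle and untreated cells it was −0.68 ± 0.64 and −0.23 ± 0.69 (edgeR, adjusted p = 0.546 and 0.847), the latter −0.11 without hyperoxia untreated replicate 1.

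The MUC3A locus overlaps LOC105375431, a long non-coding RNA gene whose counts were 53.4% of those of MUC3A over the 14 libraries, with a range of 0 to 94.7%. It too was higher with ATRA in normoxia, by 2.73 ± 0.67 on the log2 scale (edgeR, adjusted p = 0.0445). In hyperoxia its log2 fold change with ATRA was 1.85 ± 0.69 (edgeR, adjusted p = 0.203). Reads from the 2 genes cannot be told apart with certainty where they overlap.

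MUC13, a short membrane mucin of intestinal and airway epithelium, stayed between 10.7 and 29.2 CPM in all 14 libraries. The untreated libraries held 20.3 and 20.4 CPM in normoxia and 29.2 and 20.2 CPM in hyperoxia. The vehicle libraries held 17.4 and 15.4 CPM in normoxia and 14.1 and 18.4 CPM in hyperoxia. The ATRA libraries held 25.8, 28.4 and 22.4 CPM in normoxia and 14.1, 10.7 and 12.8 CPM in hyperoxia. The oxygen groups overlapped in vehicle cells and were separate in ATRA cells, where hyperoxia was lower, a separation whose share over all genes was not counted.

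Hyperoxia changed MUC13 in vehicle cells by 0.00 ± 0.31 on the log2 scale (95% interval −0.65 to 0.65, edgeR adjusted p = 0.997), and in ATRA cells by −1.01 ± 0.26, 2.02-fold lower (edgeR, adjusted p = 0.00630). In untreated cells the value was 0.28 ± 0.33 (edgeR, adjusted p = 0.593), and −0.01 without hyperoxia untreated replicate 1. The test of the difference between ATRA and vehicle cells gave −1.01 ± 0.40 with an unadjusted p of 0.0205 and an adjusted p of 0.574 in edgeR, so a difference between them was not shown. ATRA against vehicle was 0.64 ± 0.29 in normoxia (edgeR, adjusted p = 0.498) and −0.37 ± 0.29 in hyperoxia (adjusted p = 0.639).

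MUC16, the very large membrane mucin that carries the CA125 antigen, was detected mainly in normoxia and at low counts. Its counts in normoxia were 28 and 15 in untreated, 6 and 16 in vehicle and 12, 16 and 5 in ATRA libraries. In hyperoxia it was at 0 counts in both untreated libraries, in all 3 ATRA libraries and in vehicle replicate 1, and at 3 counts in vehicle replicate 2. The normoxia mean of MUC16 was 5.75-fold above the mean hyperoxia floor of 3 counts in untreated cells (4.53 ± 1.32 CPM, SD, n = 2, against 0.788 CPM). In ATRA cells it was 3.93-fold above it (3.14 ± 1.85 CPM, SD, n = 3, against 0.799 CPM). These lower bounds take the normoxia means as exact, and the lowest normoxia ATRA library held 1.30 CPM. In hyperoxia untreated replicate 2 alone, 3 counts stood at 0.977 CPM, so the untreated bound is smaller without replicate 1. In vehicle cells the ratio of the summed counts was 8.13-fold, with an exact 95% interval of 2.44 to 42.4 that covers counting error only.

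The oxygen difference of MUC16 passed the test in ATRA cells (edgeR, adjusted p = 0.00841) and in untreated cells (adjusted p = 0.0315), but not in vehicle cells (adjusted p = 0.195). MUC16 entered the test only through its normoxia libraries, so a call could only be lower and adds no support to the counts above. Without hyperoxia untreated replicate 1 the untreated call was lost (edgeR, adjusted p = 0.109), as it was without either normoxia untreated library (adjusted p = 0.147 and 0.0800), although the hyperoxia counts stayed at 0. ATRA against vehicle in normoxia gave 0.32 ± 1.13 on the log2 scale (edgeR, adjusted p = 0.981). In hyperoxia both groups were at or under the floor and no fold is given.

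MUC3A, MUC13 and MUC16 were the membrane mucins lowered in hyperoxia with ATRA, and the 250 bases before their start sites are shown because these genes were called lower in that one comparison. Over the 14 libraries their levels were weakly alike, with r of 0.29 for MUC3A and MUC13, 0.28 for MUC3A and MUC16 and 0.48 for MUC13 and MUC16. RefSeq entries on GRCh38.p14 matched 5 of the 8 members (MUC1, MUC3A, MUC4, MUC13 and MUC16). Sequences run 5′ to 3′ on the gene's strand, from chr7:100949284-100949533 (forward) for MUC3A, chr3:124934752-124935001 (reverse) for MUC13 and chr19:9065752-9066001 (reverse) for MUC16, and capitals mark motif matches on either strand.
MUC3A: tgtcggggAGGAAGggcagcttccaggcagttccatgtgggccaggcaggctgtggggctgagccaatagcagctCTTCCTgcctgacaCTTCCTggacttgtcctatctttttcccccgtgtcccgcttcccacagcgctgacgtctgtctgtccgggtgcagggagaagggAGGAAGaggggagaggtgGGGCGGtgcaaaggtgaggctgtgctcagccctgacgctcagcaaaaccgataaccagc
MUC13: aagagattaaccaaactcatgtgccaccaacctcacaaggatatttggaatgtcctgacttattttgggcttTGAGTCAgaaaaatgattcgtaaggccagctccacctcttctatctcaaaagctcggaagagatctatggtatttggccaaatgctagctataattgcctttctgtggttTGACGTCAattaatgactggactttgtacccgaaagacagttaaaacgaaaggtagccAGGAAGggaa
MUC16: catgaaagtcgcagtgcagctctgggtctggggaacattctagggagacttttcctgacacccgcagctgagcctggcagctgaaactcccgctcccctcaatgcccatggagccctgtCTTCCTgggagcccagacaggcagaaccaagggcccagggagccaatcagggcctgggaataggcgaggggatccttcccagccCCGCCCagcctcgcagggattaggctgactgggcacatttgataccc
The 7 motifs searched were the retinoid receptor half-site AGGTCA, the AP-1 element TGANTCA, the GC box GGGCGG, the forkhead element TGTTTNC, the ETS core AGGAAG, the cyclic AMP response element TGACGTCA and the TATA box TATAAA. MUC3A held 4 ETS cores and 1 GC box. MUC13 held 1 AP-1 element, 1 cyclic AMP response element and 1 ETS core, and MUC16 held 1 ETS core and 1 GC box. Of all 35116 promoters in the same table, 28.7% held the ETS core, 42.6% the GC box, 6.57% the AP-1 element and 1.65% the cyclic AMP response element. The retinoid receptor half-site, the forkhead element and the TATA box, held by 12.1%, 15.5% and 10.7% of promoters, were not found in any of these 3 windows. Among the matched members not shown, MUC4 held 1 half-site and 1 forkhead element, and MUC1 held 1 TATA box. Matches are descriptions of these letters, not of binding.

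MUC1, the widely expressed membrane mucin with a signalling tail, was covered by 143 counts in all. Its levels were 2.73 and 2.40 CPM in normoxia untreated, 2.43 and 3.19 CPM in normoxia vehicle and 6.78, 4.68 and 4.42 CPM in normoxia ATRA libraries. In hyperoxia they were 0 and 0.652 CPM untreated, 0.530 and 1.24 CPM with vehicle and 2.34, 2.68 and 1.18 CPM with ATRA. Hyperoxia lay below normoxia within each treatment, but the hyperoxia ATRA libraries reached the levels of the untreated and vehicle normoxia libraries. The share of all genes ordered like this was not counted.

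No comparison of MUC1 passed the test. The oxygen log2 fold changes were −1.60 ± 0.95 with vehicle (edgeR, adjusted p = 0.290), −1.36 ± 0.73 with ATRA (adjusted p = 0.195) and −3.08 ± 1.29 untreated (adjusted p = 0.120), the last −1.93 without hyperoxia untreated replicate 1 (adjusted p = 0.447) while it passed without hyperoxia untreated replicate 2 (adjusted p = 0.0143), where the remaining hyperoxia library is at 0 and no fold is given. With ATRA they were 1.13 ± 0.90 in hyperoxia (95% interval −0.74 to 3.01) and 0.89 ± 0.81 in normoxia (−0.78 to 2.57).

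MUC4, an ERBB2-binding membrane mucin, and MUC20, a small membrane mucin reported to bind MET, had too few counts to be tested: neither passed the filter on low counts in either fit. MUC4 held 33 counts in the 14 libraries and was at 0 in 7 libraries. Its highest levels were 2.78 CPM in normoxia vehicle replicate 1 and 2.08 CPM in normoxia ATRA replicate 3. MUC20 held 19 counts, was at or under 3 counts in 13 of 14 libraries, and reached 9 counts (1.59 CPM) in hyperoxia vehicle replicate 2. A difference between groups was not detectable for either gene at this depth. Both also have 7 rows for copies on alternate loci, which held 0 counts.

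Counting the tested members together, hyperoxia called 2 of 6 in vehicle cells (MUC5AC and MUC5B), beside 17.5% of all 14957 genes tested. In ATRA cells 4 of 6 were called (MUC3A, MUC5AC, MUC13 and MUC16), beside 22.7% of all genes. In untreated cells 2 of 6 were called (MUC5AC and MUC16), beside 15.2% of 15339 genes. All called members were lower in hyperoxia. The median log2 fold change over the 6 tested members was −1.35 in vehicle, −1.37 in ATRA and −2.13 in untreated cells, against medians of 0.01, 0.01 and −0.10 over all genes tested. With MUC16 at its lower bound the medians were −1.37 in ATRA and −1.94 in untreated cells. Over the 5 members other than MUC16 they were −1.10 in vehicle, −1.36 in ATRA and −1.36 in untreated cells. Without hyperoxia untreated replicate 1, when MUC4 also passed the filter, the fitted untreated median was −1.93 over 7 members. Without MUC16 as well it was −1.62 over 6 members, against −0.03 over all genes tested. That figure still includes MUC4 (−4.15), which was at 0 counts in hyperoxia untreated replicate 2. MUC4 passed the filter there only through normoxia vehicle replicate 1, so the figure is not free of the filter. A member passed the filter only if its counts were high enough in some group, so these figures describe the tested members and not all 8 genes. MUC1 would not have passed the filter through its hyperoxia libraries alone, and the ATRA median without MUC16 (−1.36) is its own value. The medians without MUC16 are thus not free of the filter either. MUC16 passed the filter only through normoxia libraries, so its oxygen calls could only be lower. The other called members were MUC5AC and MUC5B in vehicle, MUC3A, MUC5AC and MUC13 in ATRA and MUC5AC in untreated cells.

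**Figure D4:**
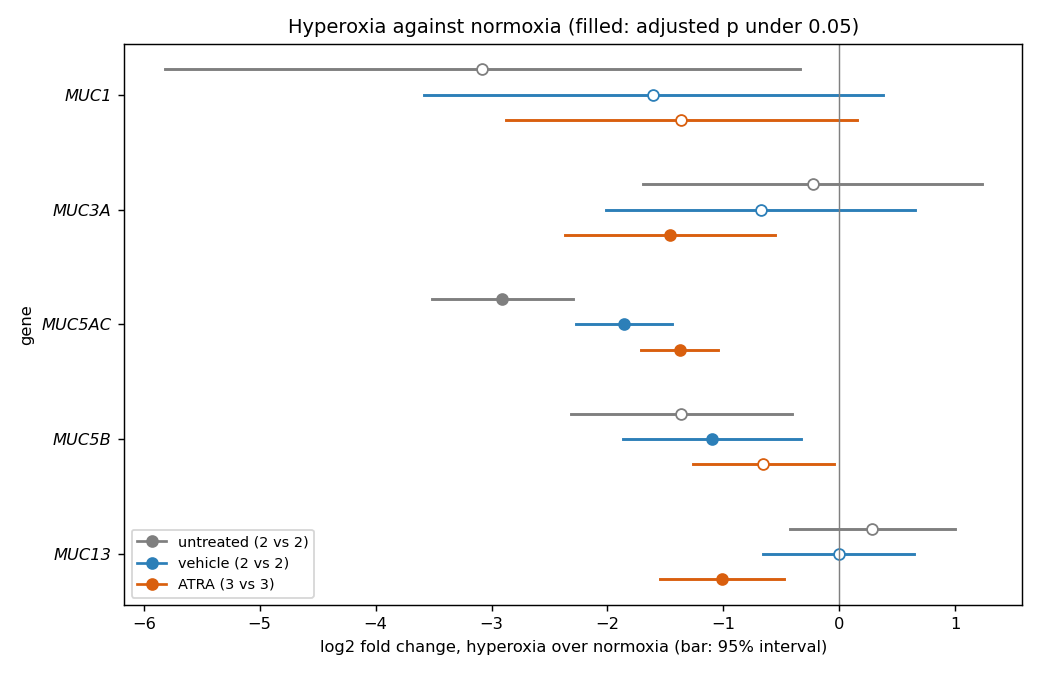
Log2 fold change, hyperoxia over normoxia (x axis), of 5 tested mucin genes (y axis) in untreated, vehicle and ATRA cells; bars are 95% intervals and filled points passed the edgeR test at an adjusted p under 0.05. MUC5AC passes in all 3 comparisons, MUC5B with vehicle, and MUC3A and MUC13 with ATRA. MUC16 is left out because its hyperoxia groups are at or near 0.

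ATRA called 1 of 6 members in hyperoxia (MUC5AC), beside 2.21% of all genes tested, and 1 of 6 in normoxia (MUC3A), beside 1.25%. Both were higher with ATRA. MUC3A and MUC1 passed the filter of this fit only with their ATRA libraries, so the filter favoured higher values for them. The median log2 fold change over the 5 tested members other than MUC16 was 1.13 in hyperoxia and 0.73 in normoxia, against 0.00 over all genes in both. The hyperoxia median is the value of MUC1. These ATRA comparisons share their vehicle and ATRA libraries with the oxygen comparisons. The difference between the ATRA effects was called for 0 of 6 members in edgeR, 1 at an unadjusted p under 0.05 and 0 with DESeq2, beside 0.14% of all genes.

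**Figure D5:**
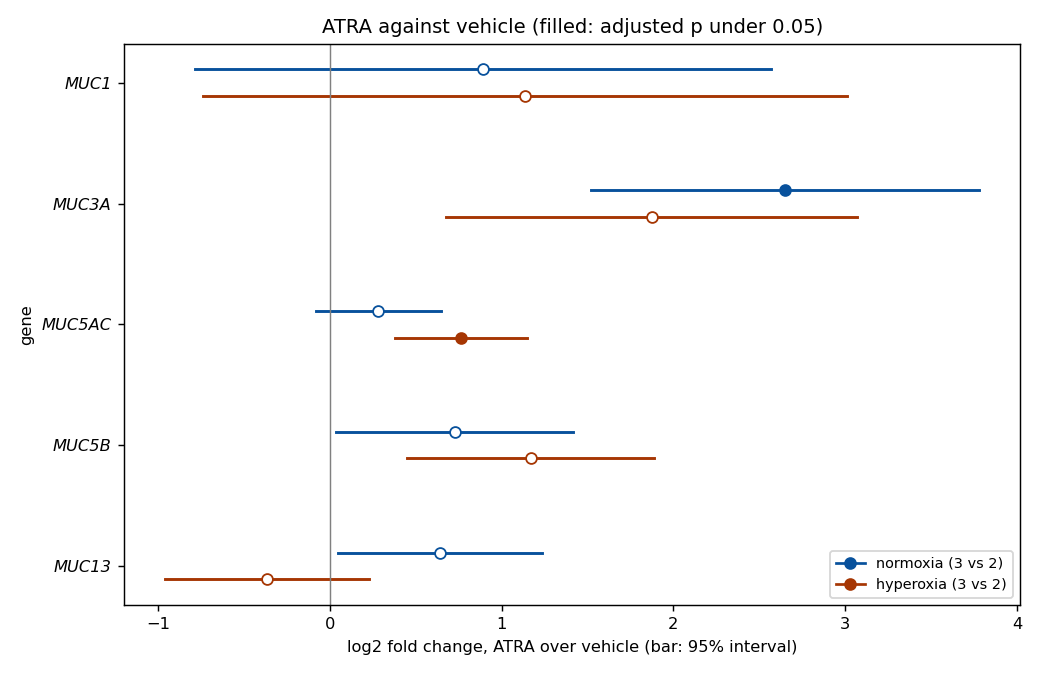
Log2 fold change, ATRA over vehicle (x axis), of 5 tested mucin genes (y axis) in normoxia and hyperoxia; bars are 95% intervals and filled points passed the edgeR test at an adjusted p under 0.05. MUC3A in normoxia (2.65) and MUC5AC in hyperoxia (0.76) are the filled points, and MUC13 is the gene whose 2 values lie on opposite sides of 0 (0.64 and −0.37).

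Vehicle libraries were also set against untreated libraries at the same oxygen level, which may set ethanol against ethanol. In hyperoxia 0 of 6 members were called in edgeR, 0 at an unadjusted p under 0.05 and 0 with DESeq2, beside 0.00652% of all genes. In normoxia 0 of 6 were called in edgeR, 1 at an unadjusted p under 0.05 and 0 with DESeq2, beside 0% of all genes. MUC5AC was the gene with that unadjusted p (0.0293), at −0.63 ± 0.26 on the log2 scale. In hyperoxia its value was 0.42 ± 0.28 (edgeR, adjusted p = 0.600), −0.02 without hyperoxia untreated replicate 1 and 1.03 without replicate 2 (adjusted p = 0.00376).

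Genes that fold, store and secrete mucins were mostly lower in hyperoxia among those called. For this and the next lists, the share of all genes called for oxygen was 17.5% with vehicle, 22.7% with ATRA and 15.2% untreated. For ATRA against vehicle it was 2.21% in hyperoxia and 1.25% in normoxia. Of 26 listed, 17 were tested. In vehicle cells 1 rose and 6 fell, in ATRA cells 2 rose and 5 fell, and in untreated cells 1 rose and 5 fell. Leaving out hyperoxia untreated replicate 1 leaves 1 library in its group, so only medians are given for the lists without it. The untreated median of this list was −0.30, and −0.49 without that library, against −0.03 over all genes tested without it. AGR2, the endoplasmic reticulum disulfide isomerase that mucin folding needs, fell by 2.29 ± 0.20 on the log2 scale with vehicle (edgeR, adjusted p = 6.72e-08) and fell by 1.47 ± 0.16 with ATRA (adjusted p = 1.02e-06). SLC12A2, the basolateral chloride importer that feeds fluid secretion, fell by 1.64 ± 0.15 with vehicle (edgeR, adjusted p = 1.29e-07). P2RY2, the nucleotide receptor that triggers mucin release, rose by 1.01 ± 0.19 with ATRA (edgeR, adjusted p = 4.05e-04). With ATRA against vehicle, AGR2 stood at 0.48 ± 0.19 in hyperoxia (edgeR, adjusted p = 0.260). The median over this list was −0.51 with vehicle and −0.33 with ATRA, against 0.01 over all genes in each.

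Among 21 listed regulators of secretory cells, 19 were tested. In hyperoxia 4 rose and 8 fell with vehicle, 3 rose and 7 fell with ATRA, and 2 rose and 6 fell untreated. The untreated median was −0.54, and −0.64 without hyperoxia untreated replicate 1. SPDEF, the ETS factor that drives goblet cell formation, fell by 3.84 ± 0.91 on the log2 scale with vehicle (edgeR, adjusted p = 0.00458) and fell by 2.56 ± 0.74 with ATRA (adjusted p = 0.0157). In hyperoxia it held 0.795 and 2.30 CPM with vehicle and 0 to 7.65 CPM with ATRA, partly near the floor, so these sizes are uncertain. FOXA1, a forkhead factor of secretory epithelium, fell by 1.26 ± 0.23 in hyperoxia with vehicle (edgeR, adjusted p = 5.53e-04) and fell by 1.71 ± 0.18 with ATRA (adjusted p = 5.21e-07). KLF4, a zinc finger factor of differentiated epithelium, rose by 2.01 ± 0.41 with vehicle (edgeR, adjusted p = 0.00130). ATRA raised 3 of the 19 in hyperoxia and 2 in normoxia and lowered none. ELF3, an epithelial ETS factor, rose with ATRA by 1.67 ± 0.17 in hyperoxia (edgeR, adjusted p = 5.56e-06) and by 1.00 ± 0.16 in normoxia (adjusted p = 0.00166). The median over this list in hyperoxia was −0.72 with vehicle and −0.40 with ATRA.

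The enzymes that start O-glycans on mucins, the GALNT family, were mixed. Of 21 listed, 15 were tested. In hyperoxia 0 rose and 2 fell with vehicle, 4 rose and 4 fell with ATRA, and 2 rose and 4 fell untreated. The untreated median was −0.40, and −0.14 without hyperoxia untreated replicate 1. GALNT6 fell by 4.34 ± 0.76 on the log2 scale with vehicle (edgeR, adjusted p = 2.97e-04). Its hyperoxia vehicle libraries held 0.265 and 1.06 CPM, near the floor, so the size of the fold is uncertain. With ATRA 1 rose and 1 fell in hyperoxia, and 1 rose and 0 fell in normoxia. GALNT12 was the one that rose, by 2.10 ± 0.40 in hyperoxia (edgeR, adjusted p = 0.00450) and 1.96 ± 0.42 in normoxia (adjusted p = 0.0159). Of 27 enzymes that extend O-glycans, 18 were tested with vehicle and ATRA, and 1 rose and 2 fell in hyperoxia in each. Among the 19 tested untreated 0 rose and 1 fell. Their untreated median was −0.55, and −0.08 without hyperoxia untreated replicate 1. B4GALT1, a galactosyltransferase, fell by 0.71 ± 0.13 with vehicle (edgeR, adjusted p = 5.97e-04). The medians of the initiating and extending enzymes in hyperoxia with vehicle were −0.10 and −0.27. The counts called for oxygen did not exceed the shares over all genes for the extending enzymes, or for the initiating enzymes with vehicle. Those counts are not read as a result about these enzymes.

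Of 22 partners and sheddases of membrane mucins, 19 were tested. In hyperoxia 4 rose and 4 fell with vehicle, 3 rose and 4 fell with ATRA, and 2 rose and 3 fell untreated. The median was −0.03 with vehicle and −0.21 untreated, the latter −0.08 without hyperoxia untreated replicate 1. EGFR, a receptor that MUC1 binds, rose by 0.96 ± 0.12 on the log2 scale with vehicle (edgeR, adjusted p = 6.69e-06), and JUP, the junction protein plakoglobin, fell by 1.82 ± 0.18 (adjusted p = 2.88e-07). LGALS3, the galectin that cross-links membrane mucins, rose with ATRA in normoxia by 0.73 ± 0.18 (edgeR, adjusted p = 0.0445). Of 19 other mucin and sialomucin genes, 17 were in the tables and 6 were tested, and PODXL, the sialomucin podocalyxin, was the one called, up in hyperoxia with ATRA by 1.03 ± 0.19 (edgeR, adjusted p = 3.36e-04). The count of called genes in this list was thus 1 up and 0 down with ATRA, and 0 with vehicle and untreated in edgeR, where 1 of the 6 had an unadjusted p under 0.05 in each (CD164 and PODXL). The untreated median of this list was 0.40, and 0.18 without hyperoxia untreated replicate 1. DESeq2 counts were not made for the lists.

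Genes whose pattern was most like each member were found by Pearson correlation of log2 CPM over the 14 labelled libraries, which share depth and the oxygen contrast. For MUC5AC they were DNM1 (r = 0.97), CLDN2 (0.97) and PLA2G4A (0.97), and for MUC5B they were FN1 (0.89), PTGFRN (0.88) and CASTOR3 (0.88). For MUC3A they were ANXA4 (0.92), LBH (0.91) and SLC27A2 (0.90), and for MUC13 they included SDCCAG8 (0.92) and ALDH6A1 (0.89). For MUC1 they were PMEPA1, NANS and RAD51D (0.96 each), and for MUC16 HNRNPM, CBX5 and ARL6IP1 (0.96 each). Between members, r was 0.78 for MUC5AC and MUC5B, 0.88 for MUC5AC and MUC1, 0.85 for MUC5AC and MUC16, 0.41 for MUC5AC and MUC3A and 0.16 for MUC5AC and MUC13. MUC3A and MUC13 were thus the tested members least like MUC5AC.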

How the data were processed

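Raw counts per gene were deposited by the authors for 15 libraries, 1 table each. Per the study's methods and the labels, RNA from A549 cells went through a directional library kit, reads were trimmed with Trimmomatic 0.38, aligned to hg38 with HISAT2 and counted with HTSeq. The annotation release and strand setting are not given in the sources used here. Rows that name no gene (reads in no feature, 48.6 to 55.3% of all; not unique, 7.65 to 8.91%; 75.2 to 78.4% with the others) were left out of library sizes. Multi-mapped reads were therefore not counted, which lowers genes with repeats.

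Groups came from the labels. Counts were fitted with edgeR 4.0.16 (R 4.3.3; glmQLFit and glmQLFTest, TMM, filterByExpr with a minimum count of 10 and total of 15), with Benjamini-Hochberg adjustment over all genes tested and a threshold of 0.05. Vehicle and ATRA comparisons used 10 libraries in 4 groups (14957 genes), and comparisons with untreated libraries used 14 in 6 groups (15339 genes). Standard errors were derived from the fold change and F. Levels are TMM-normalized CPM of the 14 libraries, ± SD, divided by transcript length (GENCODE) between genes. Precision is limited by 2642377 to 5605072 reads on genes, and the floors and the exact interval of MUC16 cover counting error only. The 95% intervals of log2 fold changes come from the edgeR fit and include spread between libraries. DESeq2 1.42.0 and other settings were alternatives. The lists and neighbours without hyperoxia untreated replicate 1 were added after the data were seen. The scripts were tested on simulated data. The named genes were all members, up to 4 tested genes per list with the smallest p, and the 3 most correlated genes per member, of which those printed are a part. A gene most like MUC13 is not reported here. Neighbouring and overlapping genes were taken by position. The members and lists were chosen with earlier results of these data known.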

Additional observations from a re-analysis of the deposited data

Results flagged for a closer look

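MUC20 stood out in the library with contradictory labels: it held 13 counts there, 2.94 CPM without TMM scaling, against 0 to 1.63 CPM in the 8 vehicle and untreated libraries. It was noted because this signal lies in a library that no comparison uses. The same library held 88.3 CPM of MUC5AC, 116.9 CPM of MUC5B, 14.7 CPM of MUC13 and 0 of MUC16 and MUC4, and no group can be given to it.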

How the results depend on the processing

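No paired analysis was possible because the labels give no replicate numbers that join libraries of different groups; a block was fitted only for library sets inferred from library numbers. MUC5AC in vehicle cells kept its direction and its call in all 11 alternatives (−2.38 to −1.76 on the log2 scale), and MUC5AC, MUC13 and MUC16 in ATRA cells did so in every alternative that gave a value. For MUC16 no call in the other direction was possible. The number of members called in vehicle cells for oxygen was 1 in place of 2 with DESeq2 and with all 14 libraries in 6 groups. For ATRA in hyperoxia it was 2 with DESeq2, with that block and with only the groups compared, 3 with no filter on low counts and 0 with 14 libraries. For ATRA in normoxia it was 2 with no filter and 0 with 14 libraries. For oxygen in untreated cells it was 0 with only the groups compared. The cause was not tested. The shares of all genes called in each setting are not set beside these counts, or beside those with 1 replicate left out. None of these counts is therefore read as a result about the mucins. With 1 replicate left out, members called ranged from 1 to 2 for oxygen in vehicle cells, 1 to 4 in untreated cells, 0 to 2 for ATRA in hyperoxia, 0 to 1 for ATRA in normoxia and 0 to 1 for vehicle against untreated in hyperoxia.

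The sign of these log2 fold changes turned under some settings. MUC13 for oxygen with vehicle was 0.13 with vehicle and untreated libraries together. With 1 replicate left out, MUC13 ranged from −0.25 to 0.14 with vehicle and −0.014 to 0.46 untreated, and MUC3A from −1.23 to 0.59 for oxygen with vehicle. MUC16 for ATRA in normoxia ranged from −0.17 to 0.70, and the MUC1 interaction from −0.18 to 0.99. For vehicle against untreated, MUC5AC in hyperoxia ranged from −0.019 to 1.03, and in normoxia MUC3A ranged from −1.70 to 0.12 and MUC1 from −0.073 to 0.31. Where an arm was left with 1 library, its spread was taken from the other groups. Depth limits MUC1, MUC4, MUC16 and MUC20, the 4 members with under 150 counts.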
